A study of Mus musculus with 12 samples.

Results

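The enzymes of sperm glycolysis were read in sorted mouse spermatids, as 10 genes that convert glucose to lactate or stand next to that route. The members were Hk1, Gpi1, Aldoa, Tpi1, Gapdhs, Pgk2, Pgam1, Eno1, Ldhc and Ldha, and every contig (annotated transcript) whose deposited gene symbol was a member was taken. This gave 24 of the 12114 contigs in the count table. Ldhc, Gapdhs and Pgk2 are germ-cell isozymes and held 7 contigs, and the 7 genes that are also used in somatic cells held 17. RNA came from adult males and was sequenced directly, as poly(A) RNA, on nanopores. The libraries form 4 groups of 3: round (RS) and elongated (ES) spermatids from males that were wt/wt or dcat/dcat at Tent5c. RS have just left meiosis and are haploid, and ES are later cells with a condensing nucleus and a growing tail. In dcat/dcat males both copies of Tent5c encode a catalytically dead TENT5C, an enzyme that adds poly(A) tails to RNA, in every cell of the animal. Each library pooled RNA from 3 males, and cells were sorted by Hoechst fluorescence and light scatter, which enriches a stage and does not purify it.

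Glycolysis splits a 6-carbon sugar into a pair of 3-carbon units and recovers ATP in its later steps. Lactate dehydrogenase then regenerates the NAD+ that glyceraldehyde-3-phosphate dehydrogenase consumes. In mouse sperm the route runs along the principal piece of the tail and supplies ATP for motility. Several steps use isozymes made mainly in male germ cells: LDHC in place of LDHA, GAPDHS in place of GAPDH, and PGK2 in place of PGK1. Pgk1 and Gapdh are carried on other chromosomes than their germ-cell counterparts, while Ldhc and Ldha lie side by side. Hk1 and Aldoa are single genes that give somatic transcripts and, in male germ cells, transcripts with another start that encode a different amino terminus.

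The coding starts below are shown because the comparisons turn on them: they distinguish the germ-cell isozyme from its somatic partner, or 1 contig of a gene from another. They are GRCm38 sequence read with the GENCODE annotation, 5′ to 3′, and each begins at the start codon. In the first pair, capitals mark bases that are not identical in the other isozyme.

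Ldhc, ENSMUST00000014545, chr7:46861770-46861844, plus strand: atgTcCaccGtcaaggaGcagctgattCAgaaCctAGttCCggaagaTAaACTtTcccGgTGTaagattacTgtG

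Ldha, ENSMUST00000048209, chr7:46847620-46847694, plus strand: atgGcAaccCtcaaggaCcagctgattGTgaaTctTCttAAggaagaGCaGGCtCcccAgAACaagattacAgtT

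These 75 bases differed at 23 positions, and over the 996 coding bases of both contigs 729 were identical (73.2%). The same comparison gave 699 of 992 aligned bases (70.5%) for Gapdhs and Gapdh. In the next pairs, capitals mark bases that are coding in no other contig of the same gene. For Hk1 the somatic start comes first and the germ-cell start follows, and for Aldoa the order is the opposite.

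Hk1, ENSMUST00000099691, chr10:62315537-62340075, minus strand, across an intron: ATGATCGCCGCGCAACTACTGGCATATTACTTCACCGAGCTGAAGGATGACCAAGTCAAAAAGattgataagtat

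Hk1, ENSMUST00000116238, chr10:62353058-62358362, minus strand, across an intron: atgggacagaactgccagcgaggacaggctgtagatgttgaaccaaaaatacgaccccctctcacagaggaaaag

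Aldoa, ENSMUST00000087566, chr7:126798040-126798114, minus strand: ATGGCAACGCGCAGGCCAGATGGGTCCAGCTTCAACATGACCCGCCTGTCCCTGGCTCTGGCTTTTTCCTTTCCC

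Aldoa, ENSMUST00000032934, chr7:126797681-126797755, minus strand: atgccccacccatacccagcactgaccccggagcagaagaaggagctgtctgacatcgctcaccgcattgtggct

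The Hk1 contig ENSMUST00000099691 had 63 such bases in the stretch shown, and the Aldoa contig ENSMUST00000087566 had all 75. The start shown for ENSMUST00000116238 is shared by the Hk1 contig ENSMUST00000072357, and that of ENSMUST00000032934 by the Aldoa contig ENSMUST00000106348. Whether single reads reached the starts was not tested, so the split of reads between contigs that differ there is uncertain. The last pair shows how little 2 of the Gapdhs contigs differ in coding sequence. Its capitals mark 6 bases of a repeat of atgccc that the other contig does not have, and the remaining 1314 coding bases were identical. The annotated 3′ ends differ as well, at 30729780 for ENSMUST00000182634 and 30729887 for ENSMUST00000074758. How well reads tell these contigs apart was not tested.

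Gapdhs, ENSMUST00000182634, chr7:30738019-30743654, minus strand, across an intron: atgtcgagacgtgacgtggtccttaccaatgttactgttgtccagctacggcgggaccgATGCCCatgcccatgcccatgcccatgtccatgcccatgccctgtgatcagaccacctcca

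Gapdhs, ENSMUST00000074758, chr7:30738019-30739356, minus strand, across an intron: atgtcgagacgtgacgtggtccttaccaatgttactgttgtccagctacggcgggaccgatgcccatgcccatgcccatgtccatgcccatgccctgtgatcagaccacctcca

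Libraries held 337287 to 1359427 counted reads, the fewest in ES wt/wt replicate 3. Levels are given as read counts per 1000000 reads (CPM) after TMM scaling, with the contigs of a gene summed unless a contig is named. A read of this assay is 1 RNA molecule, so levels of different genes were compared without division by length. All 12 libraries held every one of 5 spermatid markers and 7 elongating spermatid markers. The spermatid markers summed to between 668 and 944 CPM in RS and between 1644 and 2009 CPM in ES. The elongating spermatid markers summed to between 17383 and 40797 CPM in RS and between 218247 and 293648 CPM in ES. The 9 of 10 meiotic markers in the table summed to between 1065 and 1284 CPM in RS and between 948 and 1135 CPM in ES. Markers of cells outside the tubule wall or of its supporting cells also moved with stage. The 7 of 12 Leydig cell markers in the table, Insl3 and Cyp17a1 among them, summed to 24.6 to 61.0 CPM in RS and 288 to 1112 CPM in ES. The 9 of 14 Sertoli cell markers summed to 21.5 to 75.2 CPM in RS and 335 to 686 CPM in ES. Of 6 macrophage markers Cd74 alone had a contig, with at most 2.33 CPM in RS and 43.2 to 129 CPM in ES. None of 4 peritubular and 5 red blood cell markers had a contig. Their part in the results for the somatic-type enzymes was not tested. In sorted bulk RNA, a larger share of cells that hold a transcript and more of it per cell cannot be told apart.

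The members took similar shares of all reads in the 4 groups. In wt/wt the mean was 1.07% in RS and 1.08% in ES, and in dcat/dcat 1.06% and 1.13%. The makeup of that share was different in RS and ES. Ldhc alone gave 65.4 ± 3.30% of member reads in wt/wt RS but 42.1 ± 4.27% in wt/wt ES (SD, n = 3). The dcat/dcat values were 64.5 ± 3.26% and 41.7 ± 3.70%. Gapdhs went the other way, from 6.47 ± 0.242% to 23.6 ± 3.03% in wt/wt and from 7.29 ± 1.36% to 22.9 ± 2.53% in dcat/dcat (SD, n = 3). The 3 germ-cell isozymes together made up 79.0% and 78.8% of member reads in RS and 77.0% and 76.0% in ES, wt/wt before dcat/dcat.

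**Figure D1:**
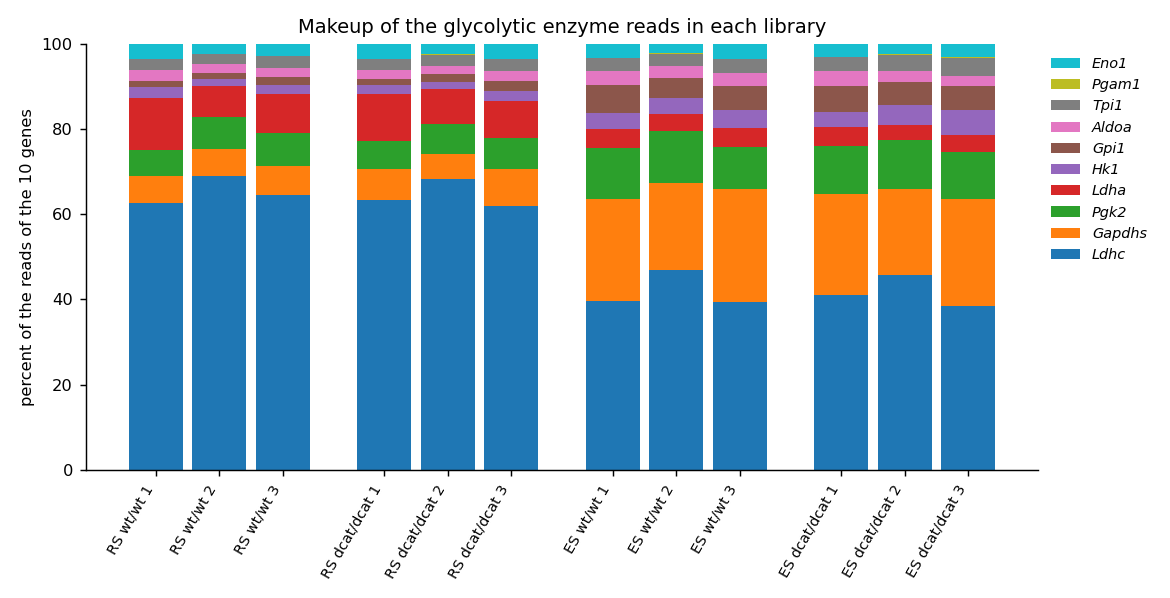
Percent of the reads of the 10 genes (y axis) that belonged to each gene, as 1 stacked bar for each of the 12 libraries. Ldhc takes a mean of 65.4% of the RS wt/wt bars and 42.1% of the ES wt/wt bars, and Gapdhs grows from 6.47% to 23.6%.

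The first question was which of these transcripts were higher or lower in ES than in RS, relative to the bulk of contigs. Of the 24 contigs, all passed the filter on low counts. In wt/wt, 12 were higher in ES and 0 were lower, by edgeR (quasi-likelihood) with Benjamini-Hochberg adjustment over all 11831 contigs tested (q at or under 0.05). Over all tested contigs 23.8% were higher and 16.6% were lower. In dcat/dcat, 14 of 24 were higher and 0 were lower, where 24.0% and 17.0% of all tested contigs were called. The median log2 change of the 24 was 1.01 in wt/wt and 1.27 in dcat/dcat, beside -0.24 and -0.18 over all contigs. Of the germ-cell isozymes 5 of 7 contigs were higher in both genotypes, and of the somatic-type enzymes 7 and 9 of 17. This grouping is by gene. The 17 include the Hk1 and Aldoa contigs with a germ-cell start, of which those of Hk1 were called higher in both genotypes. With contigs summed by gene, 7 of 10 genes were higher in wt/wt and 8 in dcat/dcat, with 0 lower in either. Over all gene sums 26.1% were higher and 22.9% lower in wt/wt. In dcat/dcat these shares were 26.4% and 22.8%. Changes are relative to the bulk of contigs. Scaled to total counts only, the median of all contigs moved to -0.96 in wt/wt and -0.85 in dcat/dcat, and the members moved down with it. As shares of all reads, summed Ldhc and summed Ldha were then called lower in both genotypes.

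**Figure D2:**
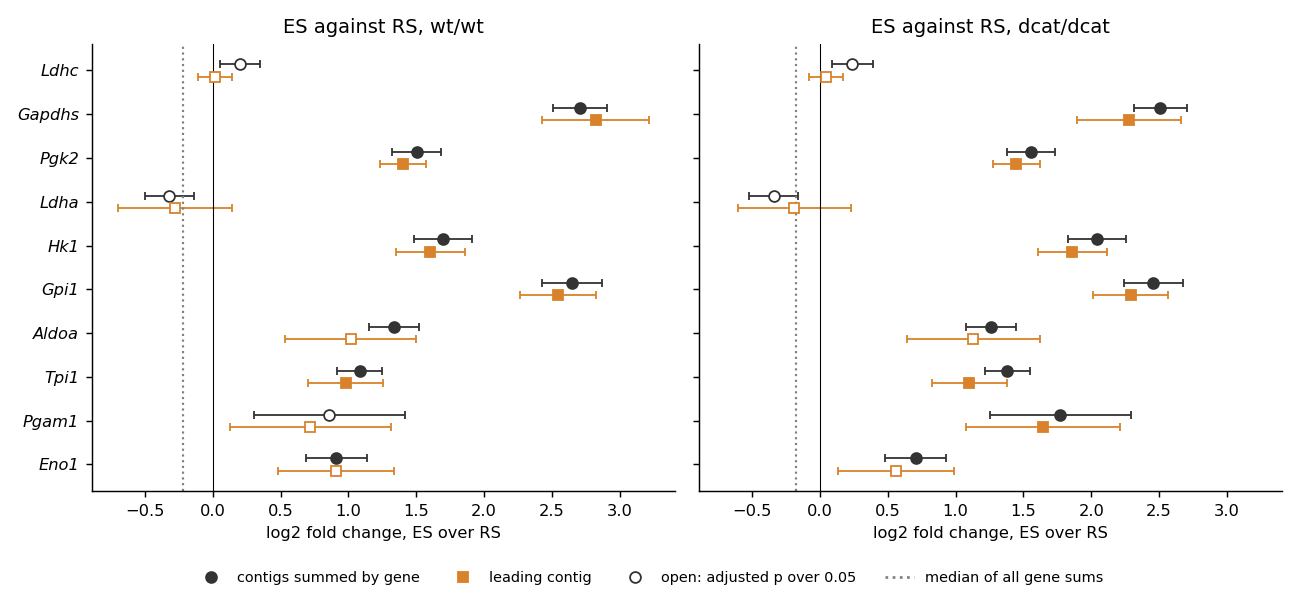
Log2 change from RS to ES (x axis) of each gene sum (circles) and leading contig (squares) in wt/wt and dcat/dcat, with bars of 1 standard error from edgeR over 12 libraries, open symbols for q over 0.05 and a dotted line at the median of all gene sums. The circles of Gapdhs and Gpi1 lie furthest to the right, above 2.4 in both genotypes, while Ldhc stays near 0 and Ldha lies below it.

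At the entry of the route, Hk1, which phosphorylates glucose, had 186, 136 and 190.1 CPM in the 3 RS wt/wt libraries and 564, 516 and 594 CPM in ES wt/wt. In dcat/dcat it had 173, 121 and 209 CPM in RS and 526, 662 and 895 CPM in ES. Every ES library lay above every RS library. The log2 change of Hk1 was 1.70 ± 0.21 (SE, q 1.4e-06) in wt/wt, 3.24-fold, and 2.04 ± 0.21 (q 1.3e-07) in dcat/dcat, 4.12-fold. Its leading contig ENSMUST00000099691, with the somatic start shown, covers chromosome 10 from 62268855 to 62340542 in 18 exons and took 51.0% of Hk1 reads. Its log2 changes were 1.60 (q 0.00018) and 1.86 (q 5.7e-05). The contigs with the germ-cell start rose as well. ENSMUST00000116238, with 39.0% of reads, rose by 1.70 (q 0.00018) and 2.17 (q 2.6e-05), and ENSMUST00000072357, with 9.99%, by 1.05 (q 0.043) and 1.27 (q 0.017).

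Gpi1 encodes glucose-6-phosphate isomerase, the next enzyme. It had 109, 112 and 166 CPM in RS wt/wt and 112, 148 and 198 CPM in RS dcat/dcat. In ES it had 1009.7, 662 and 778 CPM in wt/wt and 928, 775 and 827 CPM in dcat/dcat. Gpi1 had rank 9 of the 10 genes in RS and rank 4 in ES. Its log2 change was 2.65 ± 0.22 (SE, q 7.4e-09), 6.27-fold, in wt/wt and 2.46 ± 0.22 (q 2.1e-08), 5.49-fold, in dcat/dcat. The leading contig ENSMUST00000038027 (chromosome 7, 34201330 to 34230336, minus strand, 18 exons) took 80.4% of reads and rose by 2.55 and 2.29. A contig annotated as a retained intron, ENSMUST00000135243, rose by 2.56 and 2.61.

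Aldoa, an aldolase that cleaves fructose-1,6-bisphosphate, had 176, 171 and 181 CPM in RS wt/wt and 164, 152 and 212 CPM in RS dcat/dcat. In ES it had 524, 371 and 439 CPM in wt/wt and 521, 373 and 377 CPM in dcat/dcat, so the stages did not overlap in either genotype. The gene sum rose by 1.34 ± 0.18 on the log2 scale (SE, q 4.3e-06), 2.52-fold, in wt/wt and by 1.26 ± 0.18 (q 9.4e-06), 2.39-fold, in dcat/dcat. The Aldoa contigs all had positive changes, and ENSMUST00000032934 alone was called. ENSMUST00000087566, with the germ-cell start shown above (chromosome 7, 126795236 to 126799141), led with 46.4% of reads and had log2 changes of 1.02 ± 0.48 (q 0.11) and 1.13 ± 0.49 (q 0.078). The contig with the somatic start, ENSMUST00000032934, took 35.6% and rose by 1.64 (q 0.00026) and 1.28 (q 0.0017). ENSMUST00000106348, with 18.1%, had 1.01 (q 0.082) and 0.97 (q 0.084). With the replicate number as a block over all 12 libraries, both uncalled Aldoa contigs passed in both genotypes. ENSMUST00000087566 had 0.94 (q 0.0012) in wt/wt and 1.04 (q 0.0006) in dcat/dcat. ENSMUST00000106348 had 1.05 (q 0.00065) in wt/wt and 0.99 (q 0.00062) in dcat/dcat. Aldoa contigs are up to 93.2% identical to Aldoart1, a spermatid aldolase with its own contigs here, so their split of reads is uncertain.

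Tpi1 encodes triosephosphate isomerase, which interconverts the 3-carbon products. It had 198, 181 and 236 CPM in RS wt/wt and 463, 395 and 457 CPM in ES wt/wt. In dcat/dcat it had 193, 199.8 and 245 CPM in RS and 484, 554 and 625 CPM in ES. On the log2 scale Tpi1 rose by 1.08 ± 0.17 (SE, q 1.8e-05), 2.12-fold, and by 1.38 ± 0.17 (q 7.7e-07), 2.60-fold. Its leading contig ENSMUST00000172132 (chromosome 6, 124810586 to 124814296, 68.3% of reads) rose by 0.98 (q 0.011) and 1.10 (q 0.0055). In wt/wt that call was lost without RS replicate 2 or ES replicate 1, each with q 0.051. The retained-intron contig ENSMUST00000154883 had 0.98 in wt/wt (q 0.19) and rose by 1.56 in dcat/dcat (q 0.037).

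Gapdhs, the sperm glyceraldehyde-3-phosphate dehydrogenase, had the largest change of the 10 gene sums in both genotypes, with Gpi1 next and within 1 standard error of it. It had 473, 499 and 588 CPM in RS wt/wt, and 568, 458 and 765 CPM in RS dcat/dcat. In ES it had 3707, 2814 and 3679 CPM in wt/wt, and 3534, 2882 and 3796 CPM in dcat/dcat. The lowest ES library was above 3 times the highest RS library. The log2 change was 2.71 ± 0.20 (SE, q 3.5e-09), 6.53-fold, in wt/wt and 2.51 ± 0.20 (q 9.6e-09), 5.69-fold, in dcat/dcat. The leading contig ENSMUST00000182634 (chromosome 7, 30729780 to 30743681, minus strand, 11 exons) took 65.9% of reads and rose by 2.82 (q 5.9e-05) and 2.28 (q 0.0003). ENSMUST00000182067, a short contig annotated for nonsense-mediated decay, took 23.8% and rose by 2.93 and 3.05. The contig without the 6 bases, ENSMUST00000074758, had 0.53 (q 0.73) and 1.66 (q 0.25). It was called in dcat/dcat with the replicate block, at 1.72 (q 0.0026).

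Pgk2, the intronless germ-cell phosphoglycerate kinase on chromosome 17 (40207015 to 40208640, minus strand, ENSMUST00000033585), makes the first ATP of the route. It had 438, 594 and 695 CPM in RS wt/wt and 507, 553 and 650.2 CPM in RS dcat/dcat. In ES it had 1839.9, 1681 and 1368 CPM in wt/wt and 1712, 1645 and 1674 CPM in dcat/dcat. The groups were far apart in both genotypes. Pgk2 rose by 1.50 ± 0.18 on the log2 scale (SE, q 6.1e-07), 2.83-fold, and by 1.56 ± 0.18 (q 4.3e-07), 2.94-fold. As a contig among contigs, in a fit with its own scaling, the changes were 1.40 and 1.45.

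Pgam1, a phosphoglycerate mutase, was the rarest member, with 150 reads in all 12 libraries. In wt/wt its reads were 10, 12 and 23 in the RS libraries and 4, 22 and 1 in the ES libraries. The dcat/dcat libraries held 6, 11 and 13, then 9, 12 and 27. Replicate 2 of ES wt/wt thus held most reads of its group. In wt/wt the log2 change was 0.86 ± 0.55 (SE, q 0.21), and without that library it was -0.74. In dcat/dcat Pgam1 rose by 1.77 ± 0.52 (q 0.0082), 3.42-fold, but the call was lost without ES dcat/dcat replicate 3 (q 0.084). As a contig (ENSMUST00000011896) it rose by 1.64 in dcat/dcat (q 0.032), and that call was lost in each fit without RS dcat/dcat replicate 1 or 3 or without ES dcat/dcat replicate 2 or 3 (q 0.056 to 0.16). At these counts the sampling error is large.

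Eno1 encodes an enolase, the step before pyruvate. It had 251, 179 and 237 CPM in RS wt/wt and 507, 283 and 479 CPM in ES wt/wt. In dcat/dcat it had 268, 183 and 306 CPM in RS and 449, 331 and 458 CPM in ES. The lowest ES library lay only a little above the highest RS library in each genotype. The gene sum rose by 0.91 ± 0.22 (SE, q 0.0022), 1.88-fold, and by 0.71 ± 0.22 (q 0.013), 1.63-fold. In dcat/dcat the call was lost without RS replicate 2 (q 0.076). Neither contig was called: ENSMUST00000080926 (chromosome 4, 150236952 to 150248879, 70.6% of reads) had 0.91 (q 0.10) and 0.56 (q 0.31), and ENSMUST00000080149 had 0.50 and 0.66. With the replicate block both passed in both genotypes, with 0.89 (q 7.0e-05) and 0.63 (q 0.030) in wt/wt and 0.57 (q 0.0057) and 0.69 (q 0.011) in dcat/dcat. The former is 99.5% identical to Eno1b over the matched stretch, and Eno1b had 747 and 414 reads on its own contigs, so the assignment of Eno1 reads is uncertain.

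**Figure D3:**
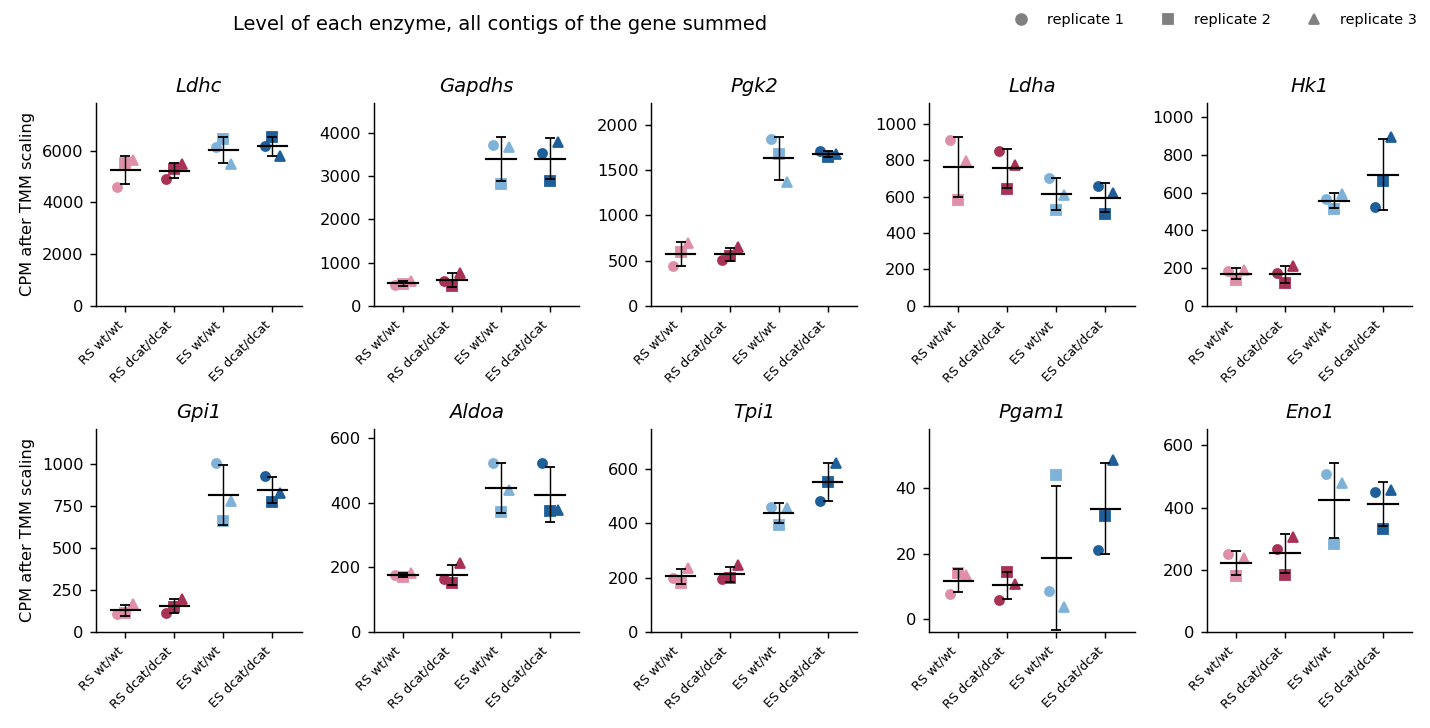
CPM after TMM scaling, contigs summed (y axis, a separate linear scale for each gene), in each library of the 4 groups, with the mean and SD of 3 libraries. Gapdhs, Pgk2, Gpi1, Hk1, Tpi1 and Aldoa show ES libraries clear of the RS libraries, and Ldha, and Pgam1 in wt/wt, show overlap.

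At the last step, Ldhc was the most abundant member in every library and had no stage call. It had 4612, 5511 and 5631 CPM in RS wt/wt and 4898, 5288 and 5497 CPM in RS dcat/dcat. In ES it had 6141, 6468 and 5485 CPM in wt/wt and 6169, 6537 and 5808 CPM in dcat/dcat. The stages overlapped in wt/wt and were just apart in dcat/dcat. The log2 change was 0.20 ± 0.15 (SE, q 0.28) and 0.24 ± 0.15 (q 0.19), neither of which passed. The leading contig ENSMUST00000014545 (chromosome 7, 46861203 to 46878142, plus strand, 8 exons) took 94.9% of Ldhc reads and had 0.01 ± 0.13 (q 0.94) and 0.04 ± 0.13 (q 0.80). Scaled to total counts only, it had log2 changes of -0.70 in wt/wt (q 3.4e-05) and -0.63 in dcat/dcat (q 7.8e-05), smaller than those of the median contig. The shorter contigs ENSMUST00000210585 and ENSMUST00000211784, with 822 and 513 coding bases against 996, rose by 1.46 (q 0.017) and 1.49 (q 0.012) in wt/wt, and by 1.49 (q 0.015) and 1.25 (q 0.030) in dcat/dcat.

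Ldha, the somatic muscle-type lactate dehydrogenase, was the only member besides Ldhc with no stage call in either genotype. It had 911, 583 and 793 CPM in RS wt/wt and 853, 639.6 and 771 CPM in RS dcat/dcat. In ES it had 701, 528 and 608 CPM in wt/wt and 659, 507 and 618 CPM in dcat/dcat. Its log2 change was -0.32 ± 0.18 (SE, q 0.16) and -0.34 ± 0.18 (q 0.13), with overlap between stages. With the replicate number as a block over all 12 libraries, the gene sum in dcat/dcat fell by 0.34 on the log2 scale with q 0.032. In the same blocked fit 2 of its contigs fell in dcat/dcat, ENSMUST00000209984 by 1.43 (q 0.00043) and ENSMUST00000005051 by 1.24 (q 0.0029). Both were lower in wt/wt too, with -0.87 (q 0.016) and -1.0 (q 0.010). Without the block their changes were -1.24 and -1.06 in dcat/dcat and -0.67 and -0.85 in wt/wt. The leading contig ENSMUST00000048209 (chromosome 7, 46845839 to 46855627, 30.4% of reads) had -0.28 and -0.19, and ENSMUST00000210815 had changes of opposite sign, 0.04 and 0.14. None of these 4 passed without the block. Scaled to total counts only, summed Ldha fell by 1.15 on that scale (q 3.1e-05) and by 1.13 (q 3.9e-05).

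In the order of mean levels, Ldhc led all groups with no overlap to the next gene. In RS it was followed by Ldha, then by Pgk2 and Gapdhs in wt/wt and by Gapdhs and Pgk2 in dcat/dcat, with overlap between neighbours. Then came Eno1, Tpi1, Aldoa, Hk1 and Gpi1, with means between 129 and 252 CPM. Of these neighbours Tpi1 and Aldoa did not overlap in wt/wt, and all others did. Pgam1 was last, apart from the rest. In ES, Gapdhs and Pgk2 came right after Ldhc in both genotypes, each apart from its neighbours. Ldha stood at rank 5 in wt/wt and rank 6 in dcat/dcat, and from Gpi1 to Eno1 each gene overlapped the next.

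The balance of isozymes was taken as a ratio of reads within each library, which no scaling of libraries can change. In RS, log2 of Ldhc over Ldha was 2.34, 3.24 and 2.83 in the wt/wt libraries and 2.52, 3.05 and 2.83 in the dcat/dcat libraries. In ES these were 3.13, 3.61 and 3.17, then 3.22, 3.68 and 3.23. The highest RS value lay among the ES values. The mean ratios were 6.97 in RS of both genotypes, and 9.87 and 10.4 in ES. The stage difference was 0.54 on the log2 scale, with p 0.015 in an exact two-sided permutation test within genotype. Adjusted over 20 such tests it was 0.10. Compared within replicate numbers, the ratio was higher in ES in 6 of 6 cases, by 0.34 to 0.79 (exact p 0.031 by sign flips, the smallest that 64 arrangements can give, and 0.10 over 20 tests). With only leading contigs the stage difference was 0.18 (exact permutation p adjusted over 4 tests 0.80). Between genotypes the difference was 0.04 (exact permutation p 0.84).

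For Gapdhs over Gapdh, the log2 ratio was 3.37, 4.38 and 3.97 in the wt/wt RS libraries and 3.50, 3.68 and 4.27 in the dcat/dcat ones. The ES values were 4.64, 5.05 and 5.61, then 4.82, 5.32 and 5.85. All 6 ES libraries were above all 6 RS libraries. Mean ratios were 15.0 and 14.1 in RS and 34.2 and 40.2 in ES. The stage difference was 1.35 (exact two-sided permutation p 0.005, the smallest that 400 arrangements can give), and 0.10 after adjustment over the 20 tests. A lone result in a family of 20 cannot go below 0.10. Relative to the bulk of contigs, summed Gapdh was itself higher in ES. It stood at 2.88-fold its RS level for wt/wt (edgeR q 0.00023) and at 2.06-fold for dcat/dcat (q 0.0071). The ratio thus grew while both of its genes were called higher. Gapdh held 518 reads in all, and it is near-identical to 9 other genes, 4 of them pseudogenes, so its reads are uncertain. With only the leading contig of each gene, which for Gapdh is the retained-intron contig ENSMUST00000147954 with 247 reads, the difference was 2.50 (exact permutation p adjusted over 4 tests 0.020, a smaller family than the 20). Between genotypes it was 0.07 (p 0.78, exact permutation).

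**Figure D4:**
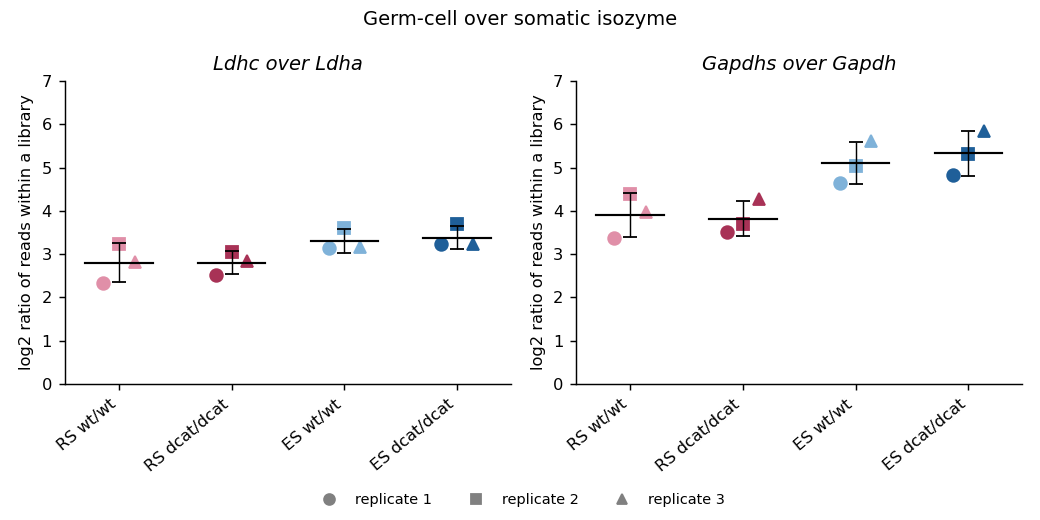
Log2 ratio of germ-cell over somatic isozyme reads within each library (y axis) for Ldhc over Ldha and for Gapdhs over Gapdh, by group, with the mean and SD of 3 libraries. ES points lie above RS points in the second pair, and in the first pair the ES libraries overlap the highest RS library. Summed Gapdh was itself called higher in ES of both genotypes.

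The split of a gene's reads between its contigs differed between the libraries numbered 1 and the others in both stages and genotypes. The Gapdhs contig ENSMUST00000182634 took 89.5 to 92.4% of Gapdhs reads in the 4 libraries numbered 1, 50.3 to 58.4% in those numbered 2 and 44.5 to 76.2% in those numbered 3. The Eno1 contig ENSMUST00000080926 took 83.9 to 91.0%, 54.0 to 57.4% and 54.8 to 80.8%. The Tpi1 contig ENSMUST00000172132 took 82.1 to 90.5%, 50.7 to 63.2% and 50.4 to 78.2%, and the Gpi1 contig ENSMUST00000038027 took 90.2 to 93.9%, 69.8 to 78.1% and 69.7 to 82.5%. For Aldoa ENSMUST00000087566 the shares were 58.9 to 68.2%, 26.5 to 39.7% and 23.9 to 49.2%. These genes share a pattern in which the libraries numbered 1 hold more of the longest coding contig. Hk1 varied less, with 53.1 to 55.4%, 43.7 to 52.6% and 49.2 to 54.7% on ENSMUST00000099691. This spread enters the error of each contig. Gene sums do not depend on the split, but they can still vary with the replicate number. Summed Ldha was highest in number 1 and lowest in number 2 in all 4 groups, as with 911, 583 and 793 CPM in RS wt/wt. The part of the replicate number in the results was not tested beyond the block.

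**Figure D5:**
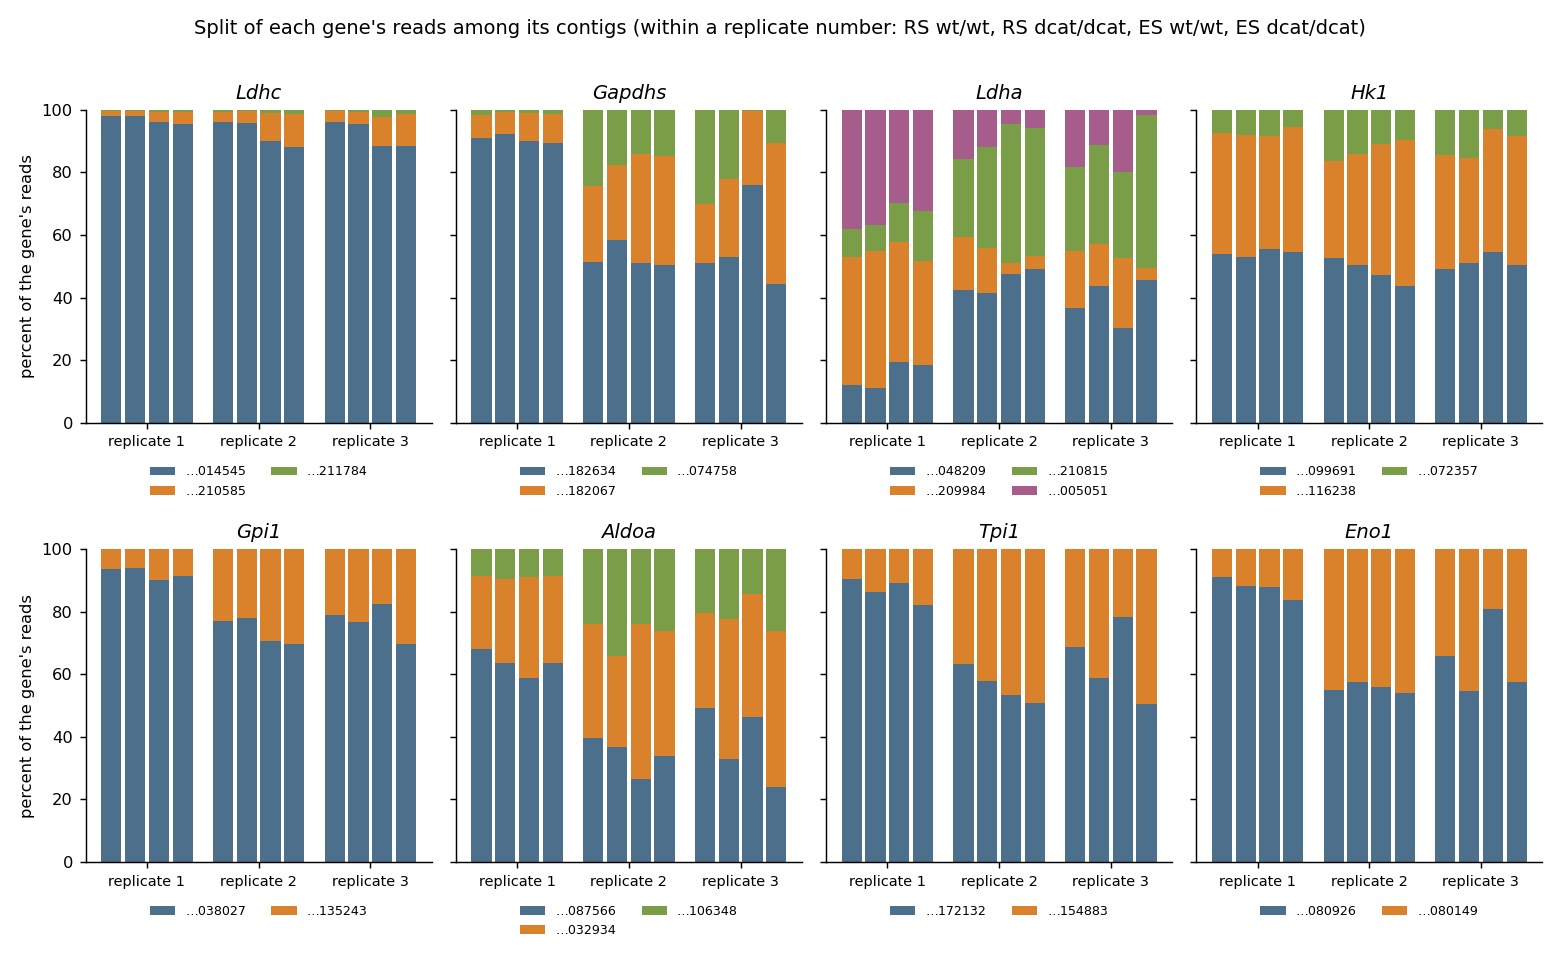
Percent of each gene's reads (y axis) on each of its contigs, 1 bar for each library, ordered by replicate number and then by group. Contigs are named by the last digits of their identifiers. The bars of replicate 1 differ from the others for Gapdhs, Ldha, Aldoa, Eno1, Tpi1 and Gpi1, while those of Hk1 and Ldhc vary less.

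The shares were also compared between stages. The share of Ldhc reads on ENSMUST00000014545 was 98.1, 96.1 and 96.3% in wt/wt RS libraries and 97.9, 95.7 and 95.5% in dcat/dcat ones. In ES it was 96.0, 89.9 and 88.5%, then 95.5, 88.3 and 88.4%. The 4 ES libraries numbered 2 and 3 lay below every RS library, and those numbered 1 did not. Between same-numbered libraries the ES value was lower in 6 of 6 cases, with differences of -7.75 to -2.11 points. The mean stage difference was -5.49 percentage points (exact two-sided permutation p 0.010, 0.10 adjusted over 20 tests). The share moved to the 2 shorter Ldhc contigs. For the other 7 genes with more than 1 contig, the smallest unpaired p for stage was 0.475. By sign flips within replicate numbers it was 0.031 for Aldoa (exact, 0.10 adjusted over 20 tests), lower in ES in 6 of 6 cases. This test does not show that their shares were the same. Between genotypes, sign flips within replicate numbers gave an exact p of 0.031 for Tpi1 and for Ldhc, each 0.10 adjusted over 20 tests. Each leading-contig share was lower in dcat/dcat in 6 of 6 cases. The differences were -27.8 to -2.59 points for Tpi1 and -1.66 to -0.11 points for Ldhc. By unpaired exact permutation the genotype p was 0.28 for Tpi1 and 0.55 for Ldhc.

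The second question was whether loss of TENT5C catalysis changed these transcripts. In RS, edgeR (quasi-likelihood, Benjamini-Hochberg) called 0 of 24 member contigs and 0 of 10 gene sums different in dcat/dcat, where 0% of all contigs and of all gene sums were called. In ES it was again 0 of 24 and 0 of 10, against 0% called. The interaction of stage and genotype also called 0 of 24 and 0 of 10, against 0%. With the replicate number as a block over all 12 libraries, 3 of all contigs and 4 of all gene sums were called in RS, none a member. At an unadjusted p under 0.05 there were, without the block, 0 member contigs and 0 member gene sums in all 3 comparisons, where 98, 359 and 170 of 11831 contigs passed that mark. Those counts are fewer than this mark would pass with no difference at all. The fit without the block was therefore strict and can miss differences. With the block 328, 735 and 356 of all contigs passed that mark. DESeq2 called 0, 1 and 0 of all contigs, and no member. Log2 differences of the gene sums lay between -0.20 and 0.24 in RS and between -0.07 and 0.71 in ES, the last for Pgam1. The smallest unadjusted p was that of Tpi1 in ES, 0.0501, with a log2 difference of 0.34 ± 0.17 (SE) and 3 of 3 dcat/dcat libraries above all wt/wt libraries. Its leading contig ENSMUST00000172132 differed by 0.009 in ES (edgeR p 0.97), and the retained-intron contig ENSMUST00000154883 by 0.98 (p 0.11). Hk1 in ES had 0.32 ± 0.21. For the most abundant members the standard errors were 0.15 to 0.19, so that Ldhc differed by -0.01 ± 0.15 in RS and 0.03 ± 0.15 in ES, and Gapdhs by 0.20 ± 0.19 and 0.00 ± 0.19.

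Other glycolytic enzymes were read from a list of 23 genes, of which 13 had a contig. Of 23 contigs tested, 12 were higher and 5 lower in wt/wt ES, against 11 and 4 in dcat/dcat ES, with medians of 0.64 and 0.87 on the log2 scale. Over all contigs 23.8% and 24.0% were higher and 16.6% and 17.0% lower, wt/wt before dcat/dcat, and the same background applies to the lists that follow. The 4 with the most reads are named, by gene sum. Pgam2, a mutase with 14029 reads against 150 for Pgam1, rose by 0.82 and 0.75, and Aldoart2, a spermatid aldolase, by 1.57 and 1.43. Bpgm, which makes 2,3-bisphosphoglycerate, rose by 0.76 and 0.99. Ldhal6b, a lactate dehydrogenase-like gene, fell by 0.63 in wt/wt and by 0.80 in dcat/dcat on the same scale, in wt/wt from 1118 to 726 CPM. All 4 passed in both genotypes.

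A list of 15 flux regulators and carriers had 8 genes with a contig. Of 16 contigs, 3 were higher and 4 lower in both genotypes, shares near those over all contigs (23.8% and 16.6% in wt/wt), with medians of -0.05 and -0.10. By gene sum, the hexose carriers Slc2a5 and Slc2a3 fell in wt/wt by 0.65 and 0.60 on the log2 scale and in dcat/dcat by 0.62 and 0.74. Bsg, which encodes the basigin partner of lactate carriers, had -0.15 and -0.22 and was not called, and the lactate and pyruvate carrier Slc16a7 rose by 0.54 and 0.69. For entry of pyruvate into mitochondria, 9 of 13 listed genes had 10 contigs, of which 2 were higher and 5 lower in wt/wt ES, against 2 and 3 in dcat/dcat ES, with medians of -0.66 and -0.51 (all contigs in wt/wt, 23.8% higher and 16.6% lower). Mpc2, a subunit of the mitochondrial pyruvate carrier, rose by 0.76 and 0.71. The pyruvate dehydrogenase subunits Pdha2 (-0.35 and -0.29) and Pdhb (0.20 and -0.02) were not called. Genes for 3 other parts of that complex, named after their values were seen, were lower in wt/wt: Dlat had -1.0 (q 0.0013), Pdhx -1.12 (q 0.00031) and Dld -1.32 (q 0.00035). In dcat/dcat Dlat (-0.71, q 0.011) and Pdhx (-0.97, q 0.00087) were lower too, and Dld had -0.48 (q 0.12). The kinase Pdk2 in wt/wt fell by 1.05 on the log2 scale (q 0.0079) and had -0.70 in dcat/dcat (q 0.051). No contig of these lists was called between genotypes or in the interaction.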

How the data were processed

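The authors deposited whole-number read counts per contig from nanopore direct RNA sequencing of 12 libraries, aligned with minimap2 (2.20-r1061 per the labels). Their DESeq2 tables gave the gene symbols, and the authors' fold changes and p-values in them were not used. Contigs that reached 10 reads in 2 or more libraries of any group were kept (11831 of 12114), scaled by TMM and fitted with edgeR 4.0.16 (quasi-likelihood, 1 mean per group), with Benjamini-Hochberg adjustment over all contigs. The script was tested on simulated data. DESeq2 1.42.0, gene sums, other scalings and filters were alternatives. Near-identical transcripts were sought with blastn 2.17.0 (90% identity over 80% of length) in GENCODE release 21, which held all 24 member contigs. Members and lists were chosen with earlier results of these data known. For each member the contig with the most reads is described, and others where called, opposite in sign or at 10% of reads. Ratios had 0.5 added to each sum. Pgk1 was not analysed here. A count of 3 stood at 2.21 to 8.89 CPM before scaling, which covers counting error only. Counting by strand was not given in the sources used here. p-values measure the spread between pooled libraries.

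Per the methods RS and ES cells were taken from the same males, and each sorting session held a male of each genotype. No source used here ties a replicate number to a set of males. The replicate block was a common term fitted over all 12 libraries, so it paired every comparison by number. Replicate numbers were checked as pairs by the correlation of same-numbered libraries' deviations. Every r was over 0.1 for ES against RS in dcat/dcat (0.52, 0.25 and 0.29) and for genotypes in RS (0.70, 0.38 and 0.47), but not for ES against RS in wt/wt (lowest r -0.09) or for genotypes in ES (lowest r 0.03). Libraries numbered 2 and 3 also correlated with each other across numbers. These r were 0.19 and 0.19 for ES against RS in dcat/dcat and 0.23 and 0.27 for genotypes in RS. The check thus set number 1 apart more than it told numbers 2 and 3 from each other.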

Additional observations from a re-analysis of the deposited data

How the results depend on the processing

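The stage calls of Gapdhs, Pgk2, Hk1, Gpi1 and Aldoa as gene sums did not change in direction or call under any alternative that was run. Combinations with gene sums were chosen after seeing the data. With total counts only, 1 member contig was lower in wt/wt and 1 in dcat/dcat, 7 were higher in dcat/dcat, and 2 genes were lower in each genotype. Under that scaling the Ldhc leading contig had -0.70 and -0.63, summed Ldhc -0.62 and -0.55, leading Pgam1 in wt/wt -0.0039, and Eno1 in dcat/dcat -0.12 as a contig and -0.081 summed. Summed Ldha was called there, at -1.15 and -1.13. The calls of Tpi1 in wt/wt, of its leading contig in dcat/dcat (0.42, q 0.19), of Pgam1 in dcat/dcat and of summed Eno1 were lost. With at least 10 reads in every library, 1 contig was lower in wt/wt, and the Ldhc leading contig had -0.31 and -0.23. The cause was not tested. With only leading contigs, adjusted over 4 tests and not 20, log2 Ldhc/Ldha had a stage difference of 0.18 (adjusted p 0.80) and a genotype difference of -0.080, and log2 Gapdhs/Gapdh a stage difference of 2.50 (adjusted p 0.020). With the replicate number as a block, 17 and 19 member contigs were higher and 2 and 2 lower in wt/wt and dcat/dcat, and 1 gene, Ldha, was lower in dcat/dcat. The leading contigs of Aldoa and Eno1 and the retained-intron contig of Tpi1 were then called in both genotypes. In wt/wt 2 Ldha contigs then had -1.0 (q 0.010) and -0.87 (q 0.016). Between genotypes the block changed no member's call, while over all contigs it called 3 in RS and 1 in ES, and over gene sums 4 and 1. For ratios and shares the pairs by number, added after seeing the data, left every adjusted p at 0.10 or above. Leaving out each library in turn, the leading contig of Ldhc ranged from -0.038 to 0.14 in wt/wt and from -0.012 to 0.16 in dcat/dcat, and that of Ldha from -0.58 to 0.0039 and from -0.55 to 0.16. Pgam1 in wt/wt ranged from -0.78 to 1.22 as a contig and from -0.74 to 1.35 summed. In dcat/dcat 9 to 15 contigs were higher, the fewest without ES dcat/dcat replicate 2, and 0 to 2 lower, the most without ES dcat/dcat replicate 1. The stage difference of log2 Ldhc/Ldha ranged from 0.42 to 0.65 and the genotype difference from -0.078 to 0.15, and that of log2 Gapdhs/Gapdh from 1.22 to 1.48 and from -0.063 to 0.20. The stage difference in leading-contig percent, in points, ranged from -6.69 to -4.75 for Ldhc, -1.36 to 8.73 for Ldha, -6.35 to 7.31 for Gapdhs, -8.86 to 1.45 for Tpi1, -2.07 to 0.69 for Hk1 and -3.41 to 6.65 for Eno1. The genotype difference ranged from -1.80 to 0.53 for Ldhc, -1.05 to 8.75 for Ldha, -10.8 to 2.88 for Gapdhs and -5.82 to 0.41 for Gpi1. Depth limits Pgam1 most, at 1 to 27 reads a library.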

Other observations

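Among other glycolytic enzymes that are not members, and outside the 4 named by read count, Pkm and Ldhb rose and Pfkp and Pfkm fell. These 4 were chosen after their values were seen. Pkm, a pyruvate kinase used in many somatic cells, had means of 32.1 CPM in RS and 211 CPM in ES of wt/wt, a log2 change of 2.70 (edgeR q 4.4e-07), and rose by 3.02 in dcat/dcat. Ldhb, the heart-type lactate dehydrogenase, went from 3.16 to 35.5 CPM, with 115 reads in all 12 libraries, and rose by 3.28 and 3.67. The phosphofructokinase genes Pfkp and Pfkm, at the committed step of the route, in wt/wt fell by 1.12 and 1.61 on the log2 scale, and in dcat/dcat by 1.15 and 1.33. The summed Leydig and Sertoli cell markers were higher in ES as well, and their part in the rise of Pkm and Ldhb was not tested.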
